A study of Mus musculus with 12 samples.

Results

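The set described here holds the mouse genes that encode integrin alpha and beta subunits and laminin chains, 36 of the 55487 gene IDs of the deposited gene table. Members were taken by symbol among protein-coding genes (integrin alpha subunits, integrin beta 1 to 8, and laminin alpha, beta and gamma chains), and 1 leukocyte integrin alpha subunit is left out by that rule and is not analysed here. Whole kidney RNA of 15-day-old mice (postnatal day 15) was sequenced in 12 libraries, 3 in each of 4 groups, with 23070688 to 31837958 counts per library. The groups are Hoxb7-Pkd1 KO kidneys with their controls and Hoxb7-Cep120 KO kidneys with their controls. Control libraries carry het in their titles and WT as genotype, and KO libraries carry homo in their titles. Hoxb7-Cre is known to be active in the ureteric bud lineage, which forms the collecting duct, so most kidney cells keep both genes, and the other alleles of the controls are not given in the sources used here. Whether the 3 libraries of each group stem from different animals is not stated, and p-values measure the spread between libraries only, which may be technical.

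Laminins are trimers of an alpha, a beta and a gamma chain that are secreted and polymerise into the basement membrane under every epithelium and endothelium. Integrins are pairs of an alpha and a beta subunit that span the plasma membrane, bind laminins, collagens or other matrix proteins outside the cell and connect to actin or keratin filaments inside it. In the kidney, laminin and integrin pairs are known for their part in branching of the ureteric bud, in tubule polarity and in the glomerular filter. The series set kidneys that lost the centriole protein gene Cep120 beside kidneys that lost Pkd1, which encodes polycystin-1, the protein most often mutated in polycystic kidney disease.

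Sequences are shown for 3 members on which the results below turn. Itga6, which encodes integrin alpha 6, has coding transcript models with different ends. In GENCODE M21 on GRCm38, Itga6-201 holds an alternative exon that encodes its intracellular tail, at chr2:71853534-71853638 on the plus strand, with 105 coding bases. Itga6-202 skips that exon and ends in another one, at chr2:71855854-71856012, with 159 coding bases. Inclusion of the exon is known to give the alpha 6A tail and skipping it the alpha 6B tail. The stretches are printed 5′ to 3′ without their stop codons, with capitals from the first base at which they differ, after 5 shared bases.
Itga6-201 tail: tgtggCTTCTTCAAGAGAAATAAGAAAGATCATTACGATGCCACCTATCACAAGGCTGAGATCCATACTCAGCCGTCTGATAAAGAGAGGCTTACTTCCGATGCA
Itga6-202 tail: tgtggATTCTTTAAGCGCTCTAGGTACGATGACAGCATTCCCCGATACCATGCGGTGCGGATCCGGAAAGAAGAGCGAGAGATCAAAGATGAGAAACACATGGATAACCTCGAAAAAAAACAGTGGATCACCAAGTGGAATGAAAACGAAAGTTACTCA

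Promoters are shown for Lamb3 and Itgb8, which had the largest rise and the largest fall of the set in Pkd1 KO kidneys. RefSeq promoters on GRCm38.p6 were at hand for 22 of the 36 members. The 250 bases before the start of Lamb3 are at chr1:193301744-193301993 on the plus strand, and those of Itgb8 at chr12:119238277-119238526 on the minus strand, and Lamb3 has a further start that is not shown. Capitals mark matches, on either strand, to TGANTCA (AP-1), GGAATG (TEAD), GTTAAT (an HNF1 core), CAGCTG (an E-box) or TATAAA (bound by TBP), none of which overlap here.
Lamb3 promoter: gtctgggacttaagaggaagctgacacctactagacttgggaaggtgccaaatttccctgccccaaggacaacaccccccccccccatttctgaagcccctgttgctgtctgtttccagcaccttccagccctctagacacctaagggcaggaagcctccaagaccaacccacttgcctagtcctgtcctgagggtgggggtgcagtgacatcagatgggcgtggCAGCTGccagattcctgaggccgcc
Itgb8 promoter: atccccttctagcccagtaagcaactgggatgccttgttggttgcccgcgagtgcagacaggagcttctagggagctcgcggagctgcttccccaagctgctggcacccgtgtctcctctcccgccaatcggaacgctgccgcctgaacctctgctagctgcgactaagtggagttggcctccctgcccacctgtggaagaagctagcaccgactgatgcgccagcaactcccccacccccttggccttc
The printed Lamb3 window held 1 match, CAGCTG beginning 25 bases before the start, letters that 13% of all 32851 windows of this length hold. The window of the further Lamb3 start held 1 match to GGAATG instead, beginning 167 bases before that start. The Itgb8 window held no match. The shares of all windows were 6.75% for TGANTCA, 12.6% for GGAATG, 6.43% for GTTAAT and 12.4% for TATAAA. A match describes the letters only.

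Read over the whole gene, neither targeted gene was reduced in its own KO group. Pkd1 was at 23.9 to 36.4 CPM (counts scaled to the library total) in Pkd1 KO and 13.9 to 21.6 in Pkd1 control, and Cep120 at 16.6 to 20.4 in Cep120 KO and 13.7 to 18.7 in Cep120 control, so directions rest on the labels. Xist was at most 0.169 CPM in all 3 Pkd1 KO libraries and 50.0 to 136 in the Pkd1 controls, so presence of Xist and genotype cannot be told apart within the Pkd1 line. Summed Y-linked RNA was at 135 to 147 CPM in Pkd1 KO, and at 0.0651, 0.0502 and 96.9 CPM in Pkd1 controls 1 to 3, so control 3 held both signals. Cep120 KO 3 and Cep120 controls 1 and 2 also held both, with Xist at 184, 59.8 and 128 CPM and Y-linked RNA at 16.6, 28.3 and 12 CPM. Genes detected numbered 30289 to 32705 in the 3 Cep120 KO libraries, Cep120 controls 1 and 2 and Pkd1 control 3, and 23532 to 25652 in the others. Cep120 controls 1 and 2 were closer to each other (chi-squared per gene 5.3) than other pairs within a group (26.0 to 67.4), yet differed by more than sampling noise, and were kept as separate libraries.

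Pkd1 KO kidneys had more RNA for most laminin chains and for some integrin subunits, among them Itga2, Itga3, Itga11 and Itgb4, and less for Lama1, Lamc3, Itga6, Itgb6 and Itgb8. Counts were compared with edgeR's quasi-likelihood test across 19890 genes with Benjamini-Hochberg adjustment and a threshold of 0.05, and fold changes are KO over control. Of 35 members tested, 16 rose, 5 fell and 14 did not pass. The called share was 60% of members, against 44.4% of all genes tested, and by direction 22.1% of all genes were called higher and 22.4% lower. The median log2 fold change of the tested members was 0.62, against -0.04 over all genes. The groups did not overlap in 24 members (68.6%), 18 with KO higher and 6 with KO lower, against 53% of all genes. Itgad, a leukocyte subunit, had 4 counts in all 12 libraries together and was not tested.

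**Figure D1:**
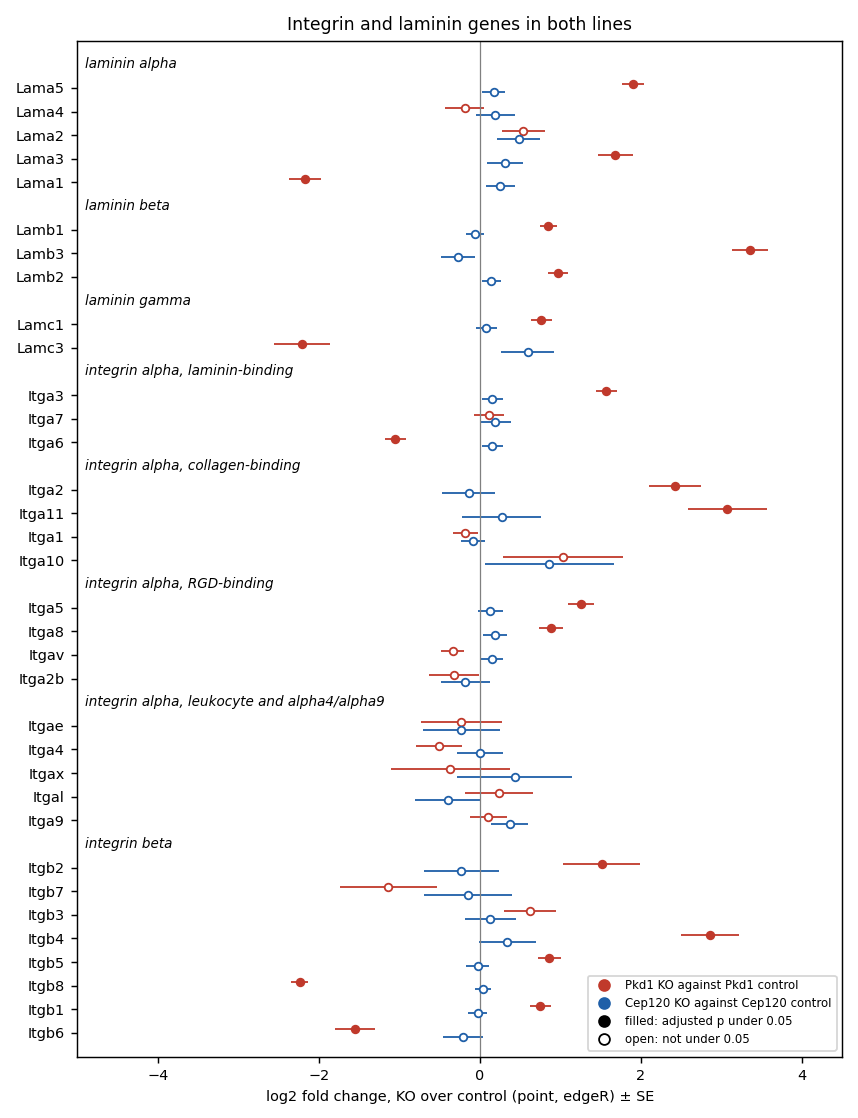
Log2 fold change with its SE (horizontal axis, edgeR) for 34 of the 35 tested members, grouped by role, in the Pkd1 line (red) and the Cep120 line (blue), filled where the adjusted p was under 0.05. Red points are filled for 20 members, between -2.24 and 3.35, and no blue point is filled.

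Of the 10 laminin chains described here, 6 rose, 2 fell and 2 did not pass, where 22.1% of all genes were called higher and 22.4% lower. Lamb3 and Lama3 encode the beta 3 and alpha 3 chains, which are known to share a laminin of epithelial anchoring complexes, and both rose. Lamb3 was at 37.3, 38.2 and 39.8 CPM in Pkd1 KO 1 to 3, against 3.42, 3.57 and 4.31 CPM in Pkd1 controls 1 to 3. The KO libraries lay close together and far above every control. The log2 fold change was 3.35 (SE 0.22, edgeR adjusted p = 6.39e-07), 10.2-fold higher and the largest rise of the set. Lama3, the alpha 3 chain, was at 17.1, 18.5 and 12.1 CPM in Pkd1 KO and 4.92, 3.92 and 6.05 CPM in Pkd1 control. Its groups did not overlap either, and it rose by 1.68 (SE 0.22, adjusted p = 5.88e-05). Transcript Lama3-202, a model of 5551 bases, held 88.7% to 93.8% of the gene's TPM (a level per transcript length) in Pkd1 KO and 80.0% to 86.1% in Pkd1 control.

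Lama5, the alpha chain of most mature kidney basement membranes, rose with them. It was at 185, 171 and 166 CPM in Pkd1 KO, against 43.3, 39.7 and 56.5 CPM in Pkd1 control, a log2 fold change of 1.90 with an SE of 0.14 (adjusted p = 1.41e-06). The widely expressed partner chains rose less. Lamb2, the beta 2 chain of the mature glomerular basement membrane, rose by 0.97 (SE 0.12), Lamb1 by 0.85 (SE 0.11) and Lamc1 by 0.76 (SE 0.13), with adjusted p of 5.35e-05, 6.49e-05 and 0.00041. None of these 3 overlapped between groups, with Lamb1 at 408 to 447 CPM in Pkd1 KO and 206 to 260 in Pkd1 control.

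Lama1 and Lamc3 moved the other way. Lama1, an alpha chain of embryonic and tubular basement membranes, was at 3.18, 3.54 and 4.67 CPM in Pkd1 KO, against 18.3, 13.2 and 19.6 CPM in Pkd1 control. All KO libraries were below all controls, and the log2 fold change was -2.17 (SE 0.20, adjusted p = 4.75e-06). Lamc3, the gamma 3 chain, was at 1.90, 0.902 and 1.36 CPM in Pkd1 KO, against 7.07, 4.42 and 7.75 CPM in Pkd1 control. It fell by 2.21 on the log2 scale (SE 0.35, adjusted p = 0.000274), again with no overlap. Lama4, an alpha chain of vessel walls, had a log2 fold change of -0.19 with an SE of 0.24 (adjusted p = 0.547). Lama2, the alpha chain of muscle and nerve basement membranes, had 0.54 (SE 0.27, adjusted p = 0.119) and was at 49.3, 42.6 and 35.6 CPM in Pkd1 KO against 21.5, 20.4 and 45.4 CPM in Pkd1 control. Pkd1 control 3 alone overlapped the KO libraries, and without it Lama2 was higher in KO by 0.99 (SE 0.19, edgeR adjusted p = 0.00135). That library is singled out after its value was seen, so the small p is no independent evidence. Over the 24 other settings the log2 fold change of Lama2 ran from -0.04 to 1.02, and it passed in 4.

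**Figure D2:**
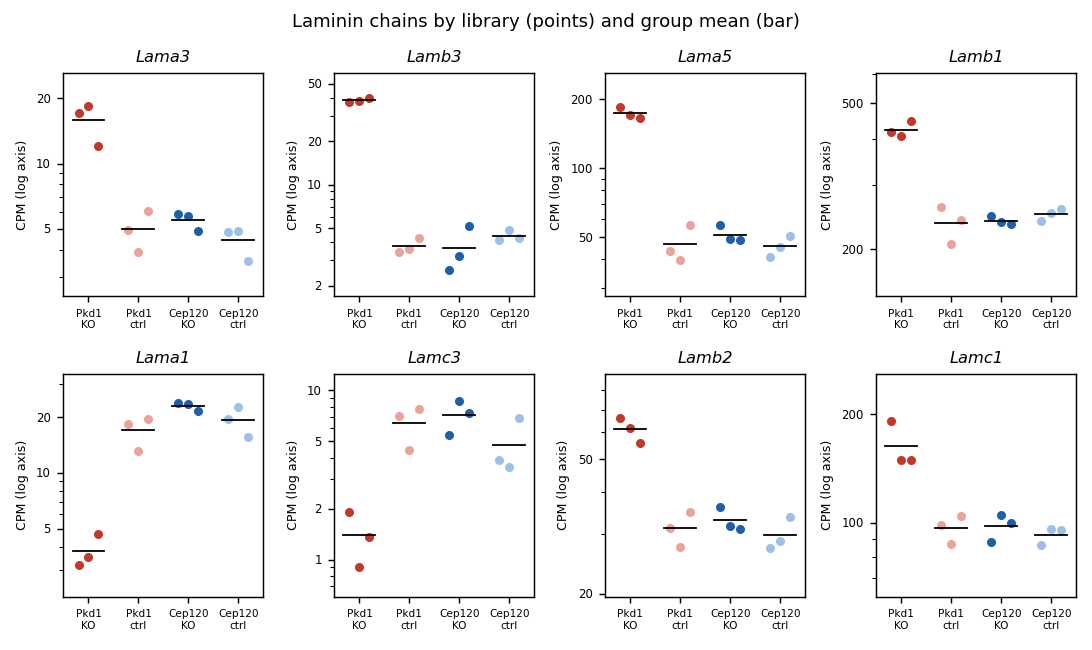
CPM on a log axis for 8 laminin chains in each library (points) with the group mean (bar), in the Pkd1 KO, Pkd1 control, Cep120 KO and Cep120 control groups. Lama3, Lamb3, Lama5, Lamb1, Lamb2 and Lamc1 were higher and Lama1 and Lamc3 lower in all 3 Pkd1 KO libraries than in all 3 Pkd1 controls.

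Among the laminin-binding integrin alpha subunits, Itga3 rose and Itga6 fell. Itga3, whose product pairs with beta 1 and binds laminins that hold alpha 3 or alpha 5, was at 107, 101 and 95.5 CPM in Pkd1 KO, against 33.5, 28.8 and 39.7 CPM in Pkd1 control. The groups lay well apart, and the log2 fold change was 1.57 (SE 0.13, adjusted p = 2.43e-06). Itga6, whose product pairs with beta 1 or beta 4, was at 74.0, 65.8 and 59.4 CPM in Pkd1 KO, against 148, 131 and 134 CPM in Pkd1 control. It fell by 1.05 (SE 0.13, adjusted p = 5.18e-05), with every KO library below every control. Itga7, known as the laminin receptor of muscle, had a log2 fold change of 0.11 with an SE of 0.19 (adjusted p = 0.666).

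The fall of Itga6 was uneven over its transcript models, whose tails are printed above. Itga6-201, with the alternative exon, was at 5.69, 4.56 and 4.18 TPM in Pkd1 KO and 4.52, 2.53 and 3.62 TPM in Pkd1 control, so the groups overlapped. The 2 models that lack the exon are Itga6-202 and the non-coding 2721-base model Itga6-203. They summed to 25.8, 22.3 and 21.6 TPM in Pkd1 KO, against 52.3, 38.4 and 52.7 TPM in Pkd1 control. In this sum every KO library was below every control. Itga6-203 held most of it, with 19.5 to 23.8 TPM in Pkd1 KO and 34.8 to 45.4 TPM in Pkd1 control. Whether Itga6-203 spans the place of the exon was not tested. The share of the exon-holding model was 17.1% ± 0.95 in Pkd1 KO and 6.86% ± 0.967 in Pkd1 control (SD, n = 3 each; two-sided exact permutation p = 0.1, the smallest that 3 against 3 allows). In Cep120 KO it was 7.72% ± 1.20 and in Cep120 control 6.66% ± 0.564 (exact permutation p = 0.3). Itga6-201 rested on 388 to 558 estimated counts in Pkd1 KO and 236 to 527 in Pkd1 control. In estimated counts, which weight longer models more, its share was 24.3% to 26.8% in Pkd1 KO and 9.63% to 12.1% in Pkd1 control.

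**Figure D3:**
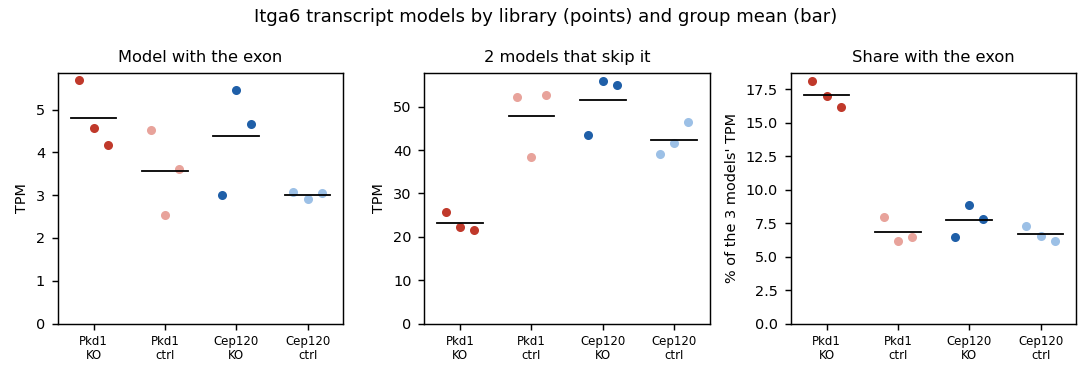
TPM of the Itga6 model with the alternative exon (left), summed TPM of the 2 models that lack it (middle) and the share of the first in all 3 (right), per library with the group mean as a bar. In Pkd1 KO the models that lack the exon lay at 21.6 to 25.8 TPM, below all other libraries, and the share lay at 16.2% to 18.1%, above all other libraries.

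Of the 4 collagen-binding subunits 2 were called (50%, near the 44.4% of all genes). Itga11, a collagen receptor of fibroblasts, was at 9.31, 5.57 and 6.64 CPM in Pkd1 KO, against 0.261, 1.05 and 1.29 CPM in Pkd1 control. Every KO library was above every control, and it rose by 3.07 on the log2 scale (SE 0.49, adjusted p = 0.000279). Itga2, a collagen receptor of epithelia and platelets, was at 11.3, 10.9 and 8.18 CPM in Pkd1 KO, against 1.60, 2.06 and 2.04 CPM in Pkd1 control. It rose by 2.42 (SE 0.32, adjusted p = 7.19e-05), also with no overlap. Its neighbour on the chromosome, Itga1, a collagen receptor of mesenchyme and endothelium, had a log2 fold change of -0.18 with an SE of 0.15 (adjusted p = 0.331). Itga10, known from cartilage, was under 1 CPM in every library and had 1.03 (SE 0.74, adjusted p = 0.274).

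Of the 4 alpha subunits that bind the RGD motif of fibronectin and similar ligands, 2 rose and none fell. The called share was 50%, near the 44.4% of all genes. Itga5, the fibronectin receptor subunit, rose by 1.25 (SE 0.16, adjusted p = 6.35e-05) and was at 45.1 to 59.2 CPM in Pkd1 KO and 19.1 to 23.2 in Pkd1 control. Itga8, the receptor subunit for nephronectin in kidney development, rose by 0.88 (SE 0.15, adjusted p = 0.000569) and was at 67.0 to 84.3 CPM in Pkd1 KO and 34.1 to 49.7 in Pkd1 control. Neither overlapped between groups. Itgav, the alpha V subunit that pairs with beta 1, 3, 5, 6 or 8, was at 75.1, 69.9 and 56.3 CPM in Pkd1 KO and 82.1, 69.9 and 103 CPM in Pkd1 control. Its log2 fold change of -0.34 (SE 0.14, adjusted p = 0.0694) did not pass, and it passed in 6 of 24 other settings, among them those without Pkd1 KO 1 (-0.44, adjusted p = 0.0465) or Pkd1 control 2 (-0.46, adjusted p = 0.022). Itga2b, the platelet subunit, had -0.32 (SE 0.31, adjusted p = 0.427).

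Of the 8 beta subunits, 4 rose and 2 fell (75% called, against 44.4% of all genes). Itgb4, the partner of alpha 6 in hemidesmosomes, was at 55.2, 49.4 and 46.2 CPM in Pkd1 KO, against 5.15, 4.42 and 11.2 CPM in Pkd1 control. The KO libraries lay far above the controls, of which control 3 was highest, and the rise was 2.86 (SE 0.36, adjusted p = 4.57e-05). Itgb1, the partner of most alpha subunits here, rose by 0.75 (SE 0.13, adjusted p = 0.000419), with 402 to 456 CPM in Pkd1 KO and 211 to 275 in Pkd1 control. Itgb5, a partner of alpha V, rose by 0.86 (SE 0.14, adjusted p = 0.000319), with 68.2 to 92.1 CPM in Pkd1 KO and 43.6 to 48.8 in Pkd1 control.

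Itgb6 and Itgb8, whose products pair with alpha V and are known for activating latent TGF-beta, fell. Other partners of alpha V did not fall, since Itgb1 and Itgb5 rose and Itgb3 did not pass. Itgb8 was at 10.2, 10.2 and 10.6 CPM in Pkd1 KO, against 50.2, 44.1 and 52.6 CPM in Pkd1 control. The KO libraries were nearly equal and below every control, with a log2 fold change of -2.24 with an SE of 0.11 (adjusted p = 1.39e-07). Itgb6 was at 42.8, 41.7 and 46.2 CPM in Pkd1 KO, against 178, 115 and 90.3 CPM in Pkd1 control. The controls were spread, yet all lay above the KO libraries, and it fell by 1.55 (SE 0.25, adjusted p = 0.000359). Itgb3, a platelet and vessel subunit, had a log2 fold change of 0.62 with an SE of 0.32 (adjusted p = 0.13).

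**Figure D4:**
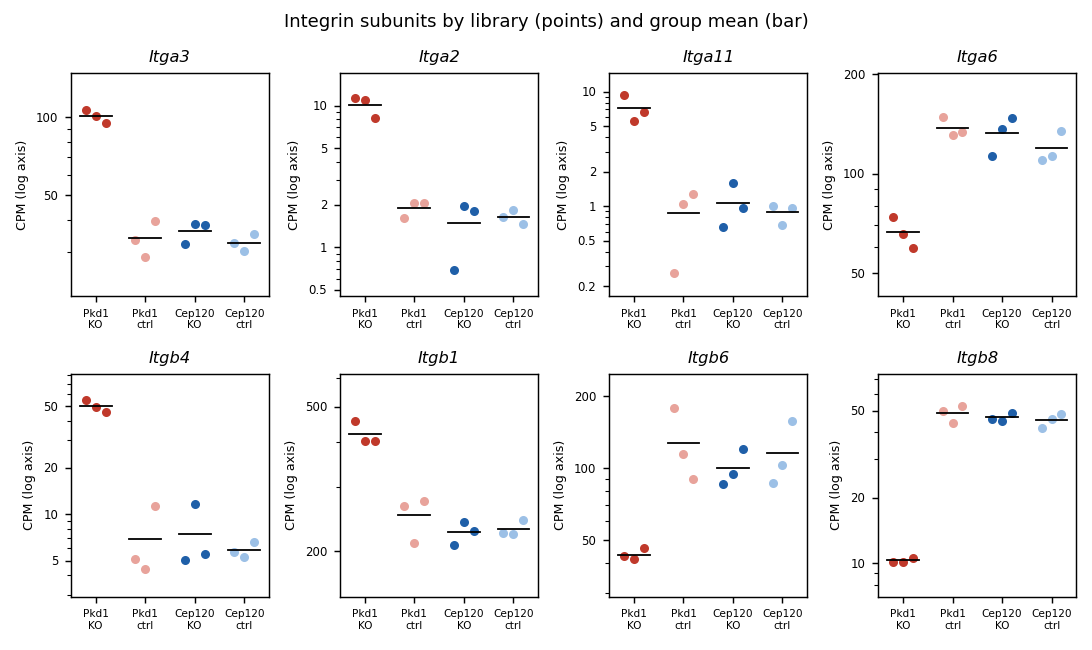
CPM on a log axis for 8 integrin subunits in each library (points) with the group mean (bar), in the same order of groups. Itga3, Itga2, Itga11, Itgb4 and Itgb1 were higher and Itga6, Itgb6 and Itgb8 lower in all 3 Pkd1 KO libraries than in all 3 Pkd1 controls.

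Among the leukocyte subunits, Itgb2 alone was called. Of the 5 tested leukocyte, alpha 4 and alpha 9 subunits of the alpha family none was called (0%), against 44.4% of all genes. Itgb2, the common beta subunit of leukocyte integrins, was at 17.1, 13.1 and 11.4 CPM in Pkd1 KO, against 3.55, 3.97 and 7.03 CPM in Pkd1 control. The groups did not overlap, and it rose by 1.51 (SE 0.48, adjusted p = 0.022). The call ended without Pkd1 KO 1 (log2 fold change 1.32, adjusted p = 0.0728), Pkd1 control 1 (1.33, 0.0755) or Pkd1 control 2 (1.4, 0.0729). Neither of the alpha partners tested here passed, with Itgal at 0.24 (SE 0.42, adjusted p = 0.659) and Itgax at -0.37 (SE 0.74, adjusted p = 0.71). Itgad was not tested and the leukocyte alpha subunit left out by the rule was not analysed, so not every partner is covered. Itgb7, a lymphocyte beta subunit, had -1.14 (SE 0.60, adjusted p = 0.137), and its partners Itga4 and Itgae had -0.51 (SE 0.29, adjusted p = 0.171) and -0.23 (SE 0.50, adjusted p = 0.737). Itga9, a tenascin receptor subunit close in sequence to alpha 4, had 0.10 (SE 0.23, adjusted p = 0.74).

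Markers of several cell types moved in the same comparison, in which 22.1% of all genes were called higher and 22.4% lower. In whole kidney RNA fewer cells of a type and less RNA per cell cannot be told apart. Members are named beside lists with their own changes already known, and the cell types that hold their RNA were not measured. Beside Itgb2, 8 of 14 leukocyte markers rose and 4 fell, with summed levels of 972 to 1420 CPM in Pkd1 KO and 151 to 406 in Pkd1 control. The 4 that fell were Cd3e, Cd3g, Cd8a and Cd79a, known from T and B lymphocytes, while Cd79b, also known from B lymphocytes, rose (7.21 to 9.15 CPM in Pkd1 KO, 2.87 to 4.02 in Pkd1 control). These 5, Upk3b and Pf4 are named after their values were seen. Beside Itga11 and Itga5, 7 of 9 fibroblast, pericyte and smooth muscle markers rose, summing to 3230 to 4820 CPM in Pkd1 KO and 697 to 996 in Pkd1 control. Beside Lamb3, Itga3 and Itgb4, 9 of 11 collecting duct markers rose and 2 fell, summing to 3360 to 4950 CPM in Pkd1 KO and 1210 to 1400 in Pkd1 control. Of 8 tested urothelial and stratified epithelial markers 1 (Upk3b) rose. The sums over that list were 363, 118 and 159 CPM in Pkd1 KO and 99.0, 119 and 171 CPM in Pkd1 control. Krt13 was at 0 to 0.0718 CPM in Pkd1 KO and 0 to 0.0378 CPM in Pkd1 control. Beside Lama1, Lamc3, Itga6, Itgb6 and Itgb8, all 8 proximal tubule markers fell, summing to 433 to 632 CPM in Pkd1 KO and 4430 to 7190 in Pkd1 control. Beside Lama4 and Itga1, 8 of 9 endothelial markers fell (342 to 429 CPM in Pkd1 KO, 636 to 676 in Pkd1 control). Of 7 podocyte markers 2 fell (116 to 152 CPM in Pkd1 KO, 214 to 249 in Pkd1 control). For Itga2b and Itgb3, 1 of 5 tested platelet markers (Pf4) rose, with sums of 30.3 to 48.5 CPM in Pkd1 KO and 10.2 to 21.5 in Pkd1 control, and Gp1bb was at 0 in both groups and Gp5 and Gp6 at 0 in Pkd1 KO. Skeletal muscle markers, a check for Itga7 and Lama2, summed to 3 to 4.31 CPM in Pkd1 KO and 1.51 to 3.11 in Pkd1 control, with Myh4 and Myh1 at 0 in both. Outside the urothelial, platelet and skeletal muscle lists no marker was at 0 in any library of these groups. The part of any marker list in the changes above was not tested.

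With a term for Xist as absent or present (under or over 1 CPM), which in this coding varies within a group only in Cep120 KO, 14 members passed (11 higher, 3 lower), against 10.1% of all genes. Itga5, Itga11, Itgb1, Itgb2, Itgb6, Lamc1 and Lamc3 then missed the threshold, with adjusted p of 0.0505 to 0.742. The log2 fold changes of Itga11 (2.82, SE 0.88), Itgb1 (0.76, SE 0.23), Lamc1 (0.81, SE 0.24) and Lamc3 (-2.15, SE 0.65) stayed near those without the term, with larger SEs. Those of Itga5 (0.82, SE 0.26), Itgb6 (-1.13, SE 0.46) and Itgb2 (0.50, SE 0.83) were nearer 0. A total of 20 members passed with a term for the level of Y-linked RNA, which does not follow genotype in Pkd1 control 3, against 21.2% of all genes. Itgb2 (0.29, adjusted p = 0.769) and Itgb6 (-0.77, adjusted p = 0.0795) missed the threshold, and Itgb4 had 1.95 and still passed.

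The makeup of the laminin alpha, laminin beta and integrin families was compared per length, as a share of the family's summed TPM, with two-sided exact permutation tests over the 6 libraries of a line, for which 0.1 is the smallest p possible. Lama5 made up 81.4% ± 0.30 of laminin alpha TPM in Pkd1 KO and 57.5% ± 4.21 in Pkd1 control (SD, n = 3 each, exact p = 0.1). Lama1 made up 0.341% ± 0.101 in Pkd1 KO and 8.62% ± 1.93 in Pkd1 control, and Lama4 made up 6.59% in Pkd1 KO and 17.3% in Pkd1 control (exact p = 0.1 for both). Among beta chains Lamb3 made up 9.57% in Pkd1 KO and 2.14% in Pkd1 control, with exact p = 0.1. By TPM the largest shares were held by the same genes in both groups, Lama5 and Lamb1 (76.0% in Pkd1 KO, 84.1% in Pkd1 control). Summed laminin alpha TPM was 129 to 156 in Pkd1 KO and 35.5 to 79.5 in Pkd1 control, and summed laminin beta TPM was 113 to 126 in Pkd1 KO and 39.4 to 64.1 in Pkd1 control. Neither sum overlapped between the groups.

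Among integrin beta subunits, Itgb6 made up 6.70% of the TPM in Pkd1 KO and 28.4% in Pkd1 control, and Itgb8 0.881% in Pkd1 KO and 5.06% in Pkd1 control. Itgb4 made up 4.99% in Pkd1 KO and 0.839% in Pkd1 control, and Itgb1 64.4% in Pkd1 KO and 48.6% in Pkd1 control (exact permutation p = 0.1 for each of these 4). In the Cep120 line Itgb8 also had exact permutation p = 0.1, with 5.68% in Cep120 KO and 5.07% in Cep120 control. There Itgb6, Itgb4 and Itgb1 had exact permutation p of 0.7, 0.5 and 0.4. Summed integrin alpha TPM overlapped, at 222 to 258 in Pkd1 KO and 168 to 287 in Pkd1 control. These levels carry a limit, since the deposited gene TPM adds up short and non-coding transcript models. Non-coding models held 86.7% of Lama5 TPM and 77.1% of Itga6 TPM, and a 463-base model held 90.3% of Itgav TPM. In counts per kilobase of each gene's longest transcript, an alternative chosen after seeing the data, Lama5 made up 60.2% of laminin alpha in Pkd1 KO and 30.5% in Pkd1 control. On that scale Lama4 made up 15% of laminin alpha in Pkd1 KO and 31.1% in Pkd1 control, so in the controls the larger of Lama4 and Lama5 depended on the scale. Itgav made up 10.4% of integrin alpha in Pkd1 KO and 14.5% in Pkd1 control per kilobase, and 46.9% in Pkd1 KO and 50.2% in Pkd1 control by TPM.

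**Figure D5:**
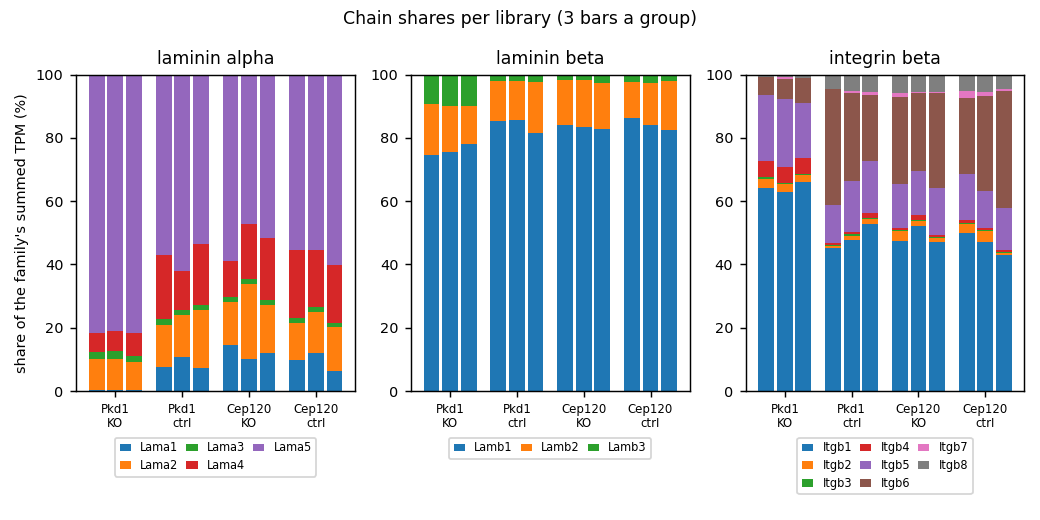
Share of each gene in the summed TPM of its chain family (vertical axis, percent), stacked in 1 bar per library with 3 bars per group, for laminin alpha, laminin beta and integrin beta. In Pkd1 KO Lama5, Lamb3, Itgb1 and Itgb4 took larger shares and Lama1, Itgb6 and Itgb8 smaller ones than in Pkd1 control. The 3 bars of a group differ in places, with Itgb6 at 20.9% to 36.4% in Pkd1 control.

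Genes that work with the set were read from 4 further lists, beside 44.4% of all genes called in the Pkd1 line and 28.1% called in the difference between the lines. Of 20 basement membrane partners, 9 rose and 3 fell in Pkd1 KO (60% called), 6 passed in the difference (30%, near that of all genes), and their median was 0.38 on the log2 scale, against -0.04 over all genes. Fras1 and Frem2, which form a basement membrane complex with each other, rose by 2.05 (SE 0.19) and 1.01 (SE 0.13), the heparan sulfate proteoglycan Agrn rose by 1.47 (SE 0.16), and Egfl6 fell by 1.57 (SE 0.20). Of 19 integrin ligands outside the laminins, 12 rose and 1 fell (68.4% called), 7 passed in the difference (36.8%), and the median was 1.17. Tgfb3, whose latent form carries the RGD motif, rose by 3.13 (SE 0.27), the matricellular proteins Thbs1 and Ccn1 by 3.02 (SE 0.30) and 2.97 (SE 0.34), and Cdh1, the ligand of the Itgae product, by 1.31 (SE 0.13).

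A further list of 10 genes held laminin receptors that are not integrins and also proteins that work with receptors, such as Dmd, Utrn, Sgca, Sgcb and Cd151. Of these 10 genes, 8 rose and none fell (80% called), 7 passed in the difference (70%), and the median was 0.63. The syndecan Sdc1 rose by 1.52 (SE 0.14), Bcam, a receptor for laminins with the alpha 5 chain, by 1.49 (SE 0.15), Rpsa by 0.79 (SE 0.12) and the tetraspanin Cd151, a partner of alpha 3 beta 1 integrin, by 0.74 (SE 0.11). Of 30 genes of the intracellular integrin adhesion complex, 20 rose and 2 fell (73.3% called), 12 passed in the difference (40%), and the median was 0.56. Plec, which links alpha 6 beta 4 integrin to keratin filaments, rose by 1.85 (SE 0.19), Zyx by 1.29 (SE 0.16), the integrin-linked kinase gene Ilk by 0.89 (SE 0.11) and its partner Parva by 0.77 (SE 0.11). Adjusted p of these 16 genes was at most 0.000164.

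Cep120 KO kidneys gave no call in the set. Of 35 members none passed, as was so of all 19890 genes tested (0%), and at an unadjusted p under 0.05 edgeR gave 0 members and 1201 genes. DESeq2 called 19 genes, and edgeR with no filter on low counts 344, none of them members. Log2 fold changes ran from -0.40 (Itgal) to 0.86 (Itga10), with a median of 0.13 against 0.01 over all genes. Groups did not overlap in 3 members (8.57%), Itgav, Lama2 and Lama3, each higher in KO, against 16.5% of all genes.

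The 3 members with the smallest p were Lamc3, Lama2 and Itga9. Lamc3 was at 5.46, 8.63 and 7.35 CPM in Cep120 KO and 3.86, 3.50 and 6.86 CPM in Cep120 control, a log2 fold change of 0.59 with an SE of 0.33 (adjusted p = 0.757). Its groups overlapped through Cep120 control 3. Lama2 was at 25.8, 36.3 and 28.5 CPM in Cep120 KO and 17.0, 23.4 and 24.3 CPM in Cep120 control (0.48, SE 0.27, adjusted p = 0.757). The groups did not overlap, by a small margin. Itga9 was at 21.4, 36.3 and 32.8 CPM in Cep120 KO and 24.6, 23.9 and 21.6 CPM in Cep120 control (0.37, SE 0.23, adjusted p = 0.757), with Cep120 KO 1 below all controls. Fibroblast, pericyte and smooth muscle markers summed to 557, 1200 and 715 CPM in Cep120 KO 1 to 3, highest in KO 2 as Lama2 and Itga9 were, and 517 to 717 in Cep120 control, and their part was not tested. The 95% interval of the log2 fold change lay within 1 of 0 for 25 of 35 members. For the members that were called in Pkd1 KO it left out the Pkd1 value in 21 of 21. Lamb3, for one, had -0.27 with an interval of -0.73 to 0.19, and Itgb8 had 0.04 with an interval of -0.18 to 0.26. This count covers members picked by their Pkd1 call and takes the Pkd1 value without its SE. The same share over all called genes was not computed. The test of the difference itself, given below, did not pass for Itgb2. None of the 4 lists of partner genes held a call.

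The effects of the lines were then compared as the Pkd1 log2 fold change minus the Cep120 log2 fold change. The difference passed in 20 of 35 members (57.1%), 15 higher and 5 lower, against 28.1% of all genes, 13.9% higher and 14.2% lower. The largest were Lamb3 (3.62, SE 0.30, adjusted p = 1.53e-05), Itga11 (2.80, SE 0.68, adjusted p = 0.00952), Lamc3 (-2.80, SE 0.48, adjusted p = 0.00116) and Itga2 (2.56, SE 0.45, adjusted p = 0.00152). Itgb2 was the sole member called in the Pkd1 line whose difference did not pass (1.74, SE 0.67, adjusted p = 0.0699). Its level in Cep120 control, 11.2, 12.3 and 2.84 CPM, spanned that of most other libraries, and the difference passed in 8 of 23 other settings, among them those without Cep120 KO 1 (2.21, adjusted p = 0.0336), Cep120 control 3 (2.16, adjusted p = 0.0087) or Pkd1 control 3 (2.09, adjusted p = 0.042). Itga8 passed narrowly (0.69, SE 0.22, adjusted p = 0.0315) and did not pass in 11 of 23 other settings, 7 of them leaving out 1 library (Cep120 KO 1 or 2, Cep120 control 1 or 3, Pkd1 KO 1 or 2, or Pkd1 control 2; 0.57 to 0.72, adjusted p = 0.0533 to 0.0797).

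The control groups gave no call between them in the set, nor in any of the 19890 genes (0%), with 1 member and 834 genes at an unadjusted p under 0.05. With no filter 248 genes were called (1 of them a member, Itgb2), and without both replicate 3 controls 371 (none a member). Itgal was at 4.87, 5.21 and 2.92 CPM in Cep120 control and 1.66, 1.61 and 3.29 CPM in Pkd1 control (log2 fold change, Cep120 control over Pkd1 control, 0.98, SE 0.42, adjusted p = 0.979). The groups overlapped. Itgav was at 66.6, 72.3 and 72.6 CPM in Cep120 control and 82.1, 69.9 and 103 CPM in Pkd1 control (-0.27, SE 0.14, adjusted p = 0.979). Itgb2 was at 11.2, 12.3 and 2.84 CPM in Cep120 control and 3.55, 3.97 and 7.03 CPM in Pkd1 control (0.86, SE 0.48, adjusted p = 0.979). Both overlapped between the groups.

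Single libraries stood apart in the set to different degrees. In the Pkd1 line KO 1 was the highest of the 6 libraries for 15 of 35 members (42.9%, against 17.2% of all genes), and control 2 the lowest for 19 (54.3%, against 19.5%). For Pkd1 control 3 the value was nearer the KO side than both other controls for 14 of the 21 called members (66.7%, against 55.2% of all called genes), and it stayed short of every KO library in all 21. In the Cep120 line, KO 2 was the highest of 6 for 12 members (34.3%, against 21.3% of all genes).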

How the data were processed

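RNA of whole kidneys was converted to cDNA with a SMARTer Ultra Low kit, per the labels' protocols. Tools listed, per the submitters' processing notes, are Salmon 0.8.2, STAR 2.5.1a, featureCounts 1.4.6-p5 of Subread, and bcl2fastq, with mm9 as build and no role for each. These kinds of deposited table were used. Estimated counts per gene and per transcript are the authors' values with no scaling, and 21.6% of gene IDs hold a value that is not whole. TPM per gene and transcript are the authors' deposited values. The deposited moderated log2 CPM, whose prior count no source used here gives, served as an alternative. Strandedness is not stated, so antisense partners cannot be told apart.

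Of 55774 lines, 287 repeats were dropped. Gene counts were rounded and analysed in R 4.3.3 with edgeR 4.0.16 (filterByExpr, TMM, a quasi-likelihood fit of 12 libraries in 4 groups). CPM are TMM-scaled, each SE was computed from its fold change and p, and the fit was tested on simulated data. Library totals of 23070688 to 31837958 counts limit weak genes, by counting error only. Groups were read from titles and genotype labels.

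Values in every library are given for up to 8 rises and 8 falls called, the 4 largest differences and, where nothing was called, the 3 smallest p, and up to 4 genes per list of partners by smallest p. Counts over the whole set include 1 member that is not reported here. Members, lists and tests were chosen with earlier results of these data known. Alternatives were DESeq2 1.42.0, scaling by RLE or upper quartile, no filter, 5 CPM in 3 libraries, the groups compared alone, a replicate block, limma 3.58.1 on the log2 CPM, each library left out, and terms for Xist, Y-linked RNA and genes detected (split at 28000). Sequences are from GENCODE M21 and RefSeq on GRCm38, and no deposited coordinates were converted.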

Additional observations from a re-analysis of the deposited data

Results flagged for a closer look

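The Pkd1 effect differed from the Cep120 effect in the members below by edgeR's test of the difference itself (adjusted p under 0.05, log2 scale, Pkd1 line minus Cep120 line). Among laminin chains the differences were 3.62 for Lamb3, 1.73 for Lama5, 1.36 for Lama3, 0.91 for Lamb1, 0.83 for Lamb2 and 0.68 for Lamc1, against -2.42 for Lama1 and -2.80 for Lamc3. Among alpha subunits they were 2.80 for Itga11, 2.56 for Itga2, 1.42 for Itga3, 1.12 for Itga5 and 0.69 for Itga8, against -1.20 for Itga6. Among beta subunits they were 2.52 for Itgb4, 0.89 for Itgb5 and 0.78 for Itgb1, against -2.28 for Itgb8 and -1.34 for Itgb6. Groups of 3 libraries were not tested for single values far from the rest of their group.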

How the results depend on the processing

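In the Pkd1 line 20 to 22 members were called as each library was left out, against 35.1% to 44.6% of all genes. RLE, upper quartile scaling, DESeq2, no filter and 5 CPM each called 22, against 44.4%, 44.6%, 39.5%, 21.9% and 55.3% of all genes. With no filter 36 members were tested, and at 5 CPM 29. The groups compared alone and the deposited log2 CPM each called 21, against 43.5% and 43.9% of all genes. Without both replicate 3 controls and with the genes-detected term 22 were called, against 44.4% and 47.6% of all genes. With the Y-linked term 20 were called and with the Xist term 14, against 21.2% and 10.1% of all genes. The Cep120 count was 0 in every setting run. The difference gave 19 to 21 members in every setting, against 15.2% to 37.3% of all genes. The control comparison was 0 except 1 (Itgb2) with no filter. No called direction turned round in any setting run. Itgb2 lost its Pkd1 call in 5 settings, Itgb6 in 2, and Itga5, Itga11, Itgb1, Lamc1 and Lamc3 in 1 each, while Itgav gained one in 6, Lama2 in 4 and Itgb7 in 1. Same-numbered libraries of a line did not deviate together throughout (correlations -0.10, -0.04 and -0.14 in the Pkd1 line, 0.18, -0.05 and 0.15 in the Cep120 line), so the numbers were not taken as pairs. With the replicate number as a block 21 members were called in the Pkd1 line, 0 in the Cep120 line, 21 in the difference and 0 between the controls. Of all genes, the same fit called 39.4%, 0%, 22.5% and 0%. Of the shares, 24 values moved beyond the spread between libraries and 326 did not, with other scales and single libraries left out counted together. With 3 libraries a group, depth limits weak members such as Itga10, Itgax and Itgae. The cause of changed calls was not tested.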

Other observations

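Itga2 and Itga1, like Itgax and Itgad, are neighbours among protein-coding genes in the RefSeq annotation of GRCm38. In the Pkd1 line Itga2 rose by 2.42 on the log2 scale, and Itga1 had -0.18.

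Itga6 in the coding models alone gave the same order. The share of Itga6-201 in the TPM of Itga6-201 and Itga6-202 was 74.5%, 66.1% and 66.6% in Pkd1 KO and 39.9%, 41.6% and 32.6% in Pkd1 control. It was 29.3%, 39.4% and 39.3% in Cep120 KO and 32%, 30.5% and 35.9% in Cep120 control.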
